A study of Danio rerio with 4 samples.

Results

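The genes described here are 9 zebrafish genes of lysosomal digestion: the cathepsins *ctsba*, *ctsc*, *ctsd*, *ctsh*, *ctsk*, *ctsla* and *ctsz*, the asparaginyl protease legumain (*lgmn*) and *asah1b*, which encodes an acid ceramidase. They were taken by symbol from the gene column of the 6 deposited tables, which together named 2075 distinct genes, and all 9 were found. RNA sequencing covered whole retinae of 10 months old wild type zebrafish. The 4 groups were retinae taken 12 hours after injury (12 hpi), 4 days after injury (4 dpi), 4 days after injury with 100 µM valproic acid given for those 4 days (4 dpi + VPA), and uninjured retinae. Valproic acid inhibits histone deacetylases. The sources used here do not say how the retina was injured or how many fish were pooled per sample. The labels give 1 sample for each group, although the design text mentions duplicates, and the tables give each group 1 FPKM value per gene or transcript (a fragment count corrected for transcript length and library size, a scale that allows levels of different genes to be compared). No difference below therefore has a replicate check, and sequencing depth is unknown.

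Lysosomes are acidic organelles in which proteins, lipids and nucleic acids taken up from outside or delivered by autophagy are broken down. Most cathepsins are cysteine proteases related to papain, made as inactive precursors and cleaved to the active form at acidic pH. Cathepsin D is an aspartic protease, legumain cleaves after asparagine and processes several cathepsins, and acid ceramidase splits ceramide into sphingosine and a fatty acid. In the retina the pigment epithelium, which degrades shed photoreceptor outer segments, and microglia, which engulf dying neurons, are known for high lysosomal activity.

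The annotation deposited with the tables matched the label. It placed 8 of the 9 genes in the lysosome by Gene Ontology, the exception being *lgmn*, which it placed in the vacuole and also assigned to axon regeneration and tissue regeneration. It gave a papain family domain to 6 (*ctsba*, *ctsc*, *ctsh*, *ctsk*, *ctsla* and *ctsz*), and of these 3 (*ctsh*, *ctsk* and *ctsla*) also carried the inhibitory propeptide domain that keeps the precursor inactive. *ctsd* was assigned to peptidase family A1. All 9 were annotated as protein coding, and they lie on 8 chromosomes of the build GRCz10, with *ctsd* and *ctsh* both on chromosome 18.

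The tables held only entries that had passed the authors' filter, an unadjusted p of at most 0.05 with more than 1 FPKM in whichever group was higher, and such entries are called listed here. The smallest finite fold listed higher was 2.64 at 12 hpi, 2.63 at 4 dpi and 2.72 at 4 dpi + VPA, so a gene not listed may still have differed by less than this, or by more with a larger error. At 4 dpi all 9 genes were listed higher and 0 lower. At 4 dpi + VPA 7 were listed higher and 0 lower, with *ctsd* and *asah1b* not listed. At 12 hpi only *ctsla* was listed, higher, and 8 were not. Of 29201 zebrafish gene identifiers in a reference name table, 1.16% were listed higher at 12 hpi, 2.76% at 4 dpi and 1.92% at 4 dpi + VPA; the sources used here do not state how many genes the authors tested. Among the listed genes, 63.6% at 12 hpi, 60.3% at 4 dpi and 57.4% at 4 dpi + VPA were listed higher. The 9 genes were chosen with these results known, so their counts are a description. None of the 9 was marked significant by the authors in any comparison: the lowest q among them was 0.469, for *ctsc* at 4 dpi in the authors' deposited table, while 4.51% of the genes listed higher at 4 dpi had a q of at most 0.05. At 12 hpi and at 4 dpi + VPA 0 entries of any gene were marked significant, and the lowest q of all entries was 0.0717 in both.

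In uninjured retina, at the gene level of the 4 dpi tables, the 9 genes fell into an abundant and a scarce set. *ctsd* was at 57.1 FPKM, *ctsla* at 41.0, *lgmn* at 32.0, *ctsba* at 22.4 and *asah1b* at 11.3 FPKM. *ctsc* was at 2.94, *ctsh* at 2.34, *ctsz* at 2.25 and *ctsk* at 0.642 FPKM. The 5 genes above 10 FPKM made up 95.2% of the summed level of the 9 genes. The line of 10 FPKM was drawn after the values were seen and lies between *asah1b* just above it and *ctsc* below. Only *ctsk* was under 1 FPKM in uninjured retina and thus passed the filter on low values only through the injured group. With 1 value per group the order of neighbours such as *ctsc*, *ctsh* and *ctsz* cannot be set against a spread.

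At 4 dpi the same 9 genes ranged from 19.3 to 197 FPKM. Their sum was 744 FPKM at 4 dpi and 172 FPKM in uninjured retina, a ratio of 4.33. The scarce set came close to the lower end of the abundant set, and the highest level exceeded the lowest 10.2 times at 4 dpi and 89.0 times in uninjured retina. With 0.1 added to both FPKM values, the 9 genes had a median log2 ratio of 2.21, against 2.66 over the 865 genes listed higher and 1.93 over all 1434 listed genes. The median of the 9 genes thus lay below the middle of the genes listed higher and close to their lower quartile of 2.12. Of the 9 genes, 7 were at least 4-fold higher, where 81% of the genes listed higher were. An unadjusted p of at most 0.01 was reached by 3 of the 9 (*ctsc*, *ctsz* and *ctsk*), where 40.2% of the genes listed higher had one.

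**Figure D1:**
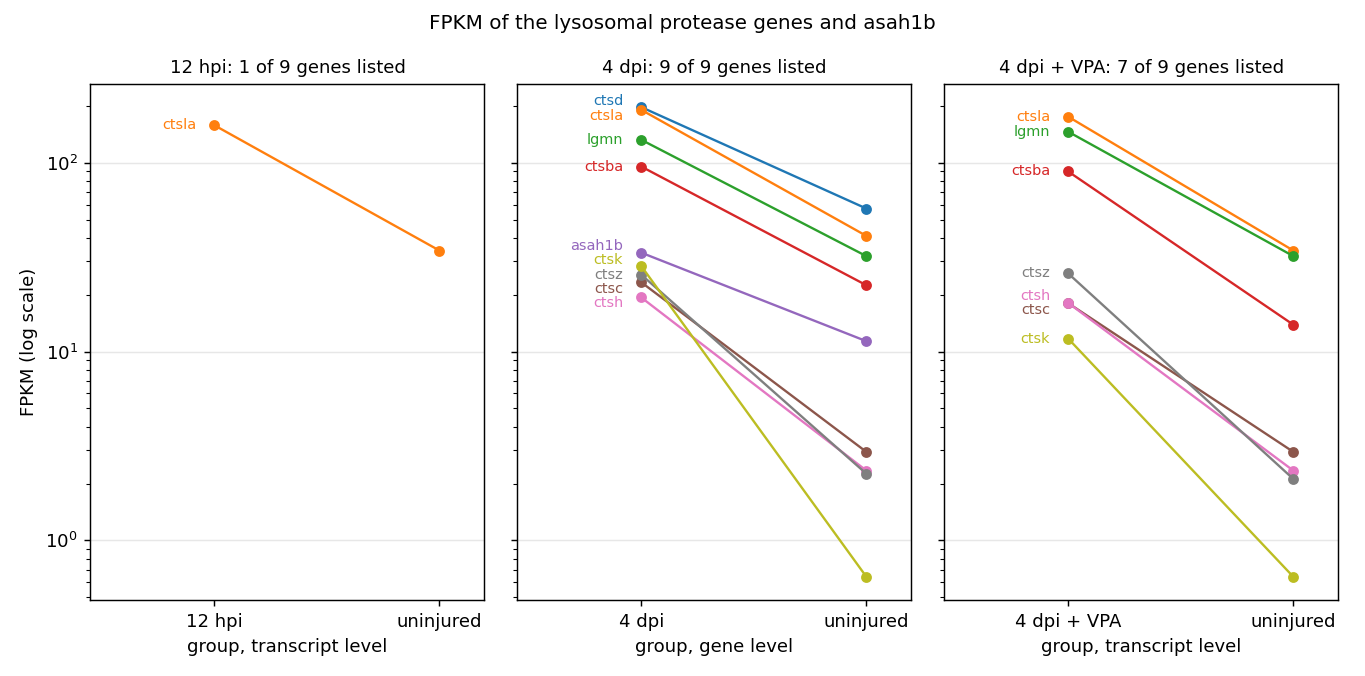
FPKM values (log scale) of the 9 genes in each comparison, with the injured group on the left and uninjured retina on the right of each panel; each line joins the authors' values for 1 gene, with 1 pooled value per group and no error bars. All 9 lines at 4 dpi, all 7 at 4 dpi + VPA and the single line at 12 hpi are higher on the injured side, and the line of *ctsk* is the steepest, with 28.4 FPKM at 4 dpi against 0.642 FPKM uninjured.

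The abundant cathepsins differed by similar factors. *ctsd*, the aspartic protease, was at 197 FPKM at 4 dpi and 57.1 FPKM in uninjured retina, and the authors' deposited table gives it a log2 change of 1.78 with a derived SE of 0.79 (p = 0.0282, q = 0.999). *ctsla*, a cathepsin L gene, was at 190 and 41.0 FPKM in the same order, and the authors' deposited table gives it a log2 change of 2.22 with a derived SE of 0.91 (p = 0.0132, q = 0.965). *ctsba*, a cathepsin B gene, was at 95.3 FPKM at 4 dpi and 22.4 FPKM in uninjured retina, and the authors' deposited table gives it a log2 change of 2.09 with a derived SE of 0.83 (p = 0.0119, q = 0.924). All 3 were between 3.44 and 4.65 times their uninjured level, and these changes differed from each other by less than 1 SE. Each SE was derived by dividing the authors' log2 change by their test statistic.

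Legumain and acid ceramidase belong to the same abundant set. *lgmn* was at 132 FPKM at 4 dpi and 32.0 FPKM in uninjured retina, 4.13-fold higher, and the authors' deposited table gives it a log2 change of 2.05 with a derived SE of 0.78 (p = 0.0103, q = 0.872). *asah1b* was at 33.4 FPKM at 4 dpi and 11.3 FPKM in uninjured retina, 2.94-fold higher. The log2 change of *asah1b* in the authors' deposited table, 1.56 with a derived SE of 0.83 (p = 0.0455, q = 0.999), was the smallest of the 9 and the nearest to the p of 0.05 at which the tables end. It stood at place 840 of 865 genes listed higher at 4 dpi when these are ordered by their log2 change.

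The scarce set holds *ctsc*, *ctsh*, *ctsz* and *ctsk*. *ctsc*, which in mammals removes dipeptides and activates granule serine proteases of immune cells, was at 23.3 FPKM at 4 dpi and 2.94 FPKM in uninjured retina. In the authors' deposited table *ctsc* has a log2 change of 2.98 with a derived SE of 0.83 (p = 0.00175, q = 0.469), the smallest p among the 9 genes at 4 dpi. *ctsh*, an aminopeptidase, was at 19.3 FPKM at 4 dpi and 2.34 FPKM in uninjured retina, and the authors' deposited table gives it a log2 change of 3.05 with a derived SE of 1.0 (p = 0.0115, q = 0.914). *ctsz*, a carboxypeptidase, was at 25.5 FPKM at 4 dpi and 2.25 FPKM in uninjured retina, and the authors' deposited table gives it a log2 change of 3.50 with a derived SE of 1.0 (p = 0.00395, q = 0.552). These 3 genes were between 7.91-fold and 11.3-fold higher at 4 dpi.

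*ctsk*, the collagen-degrading cathepsin of osteoclasts in mammals, had the largest fold of the 9. It was at 28.4 FPKM at 4 dpi and 0.642 FPKM in uninjured retina, 44.2-fold higher, and the authors' deposited table gives it a log2 change of 5.47 with a derived SE of 1.1 (p = 0.0049, q = 0.606). The authors' p was 2760 times the p that a normal distribution gives at the same test statistic, so the SE of *ctsk* understates its uncertainty. For the other 8 genes this ratio lay between 0.743 and 8.83. By log2 change *ctsk* was at place 62 of the 865 genes listed higher at 4 dpi, and the other 8 genes were at places 277 to 840.

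**Figure D2:**
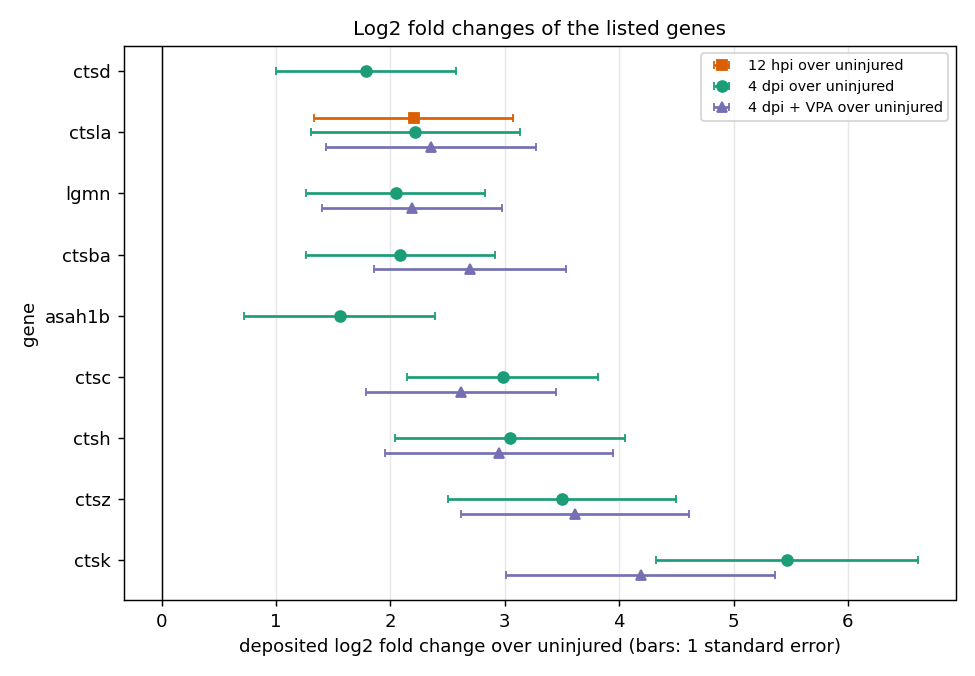
The authors' log2 fold changes over uninjured retina for each listed gene, with bars of 1 SE derived from the deposited test statistic; genes run from the highest uninjured level at the top to the lowest at the bottom, and a comparison in which a gene was not listed has no point. At 4 dpi the changes lie between 1.56 for *asah1b* and 5.47 for *ctsk*. Where a gene was listed in several comparisons the bars overlap, but they share the uninjured group, so overlap does not test a difference.

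Genes with a lower uninjured level had larger changes. Over the 9 genes at 4 dpi, Spearman's rho between uninjured FPKM and the log2 change with a pseudocount of 0.1 was -0.78, and over the 865 genes listed higher it was -0.60. At 4 dpi + VPA it was -0.93 over 7 genes and -0.78 over the 595 genes listed higher. The uninjured value enters both measures, and a scarce gene needs a larger change to be listed, so the 9 genes followed what holds for listed genes in general. By level, by contrast, the abundant genes stood high among the genes listed higher at 4 dpi. *ctsd* was at place 111, *ctsla* at 112, *lgmn* at 147 and *ctsba* at 173 of 865 by FPKM.

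**Figure D3:**
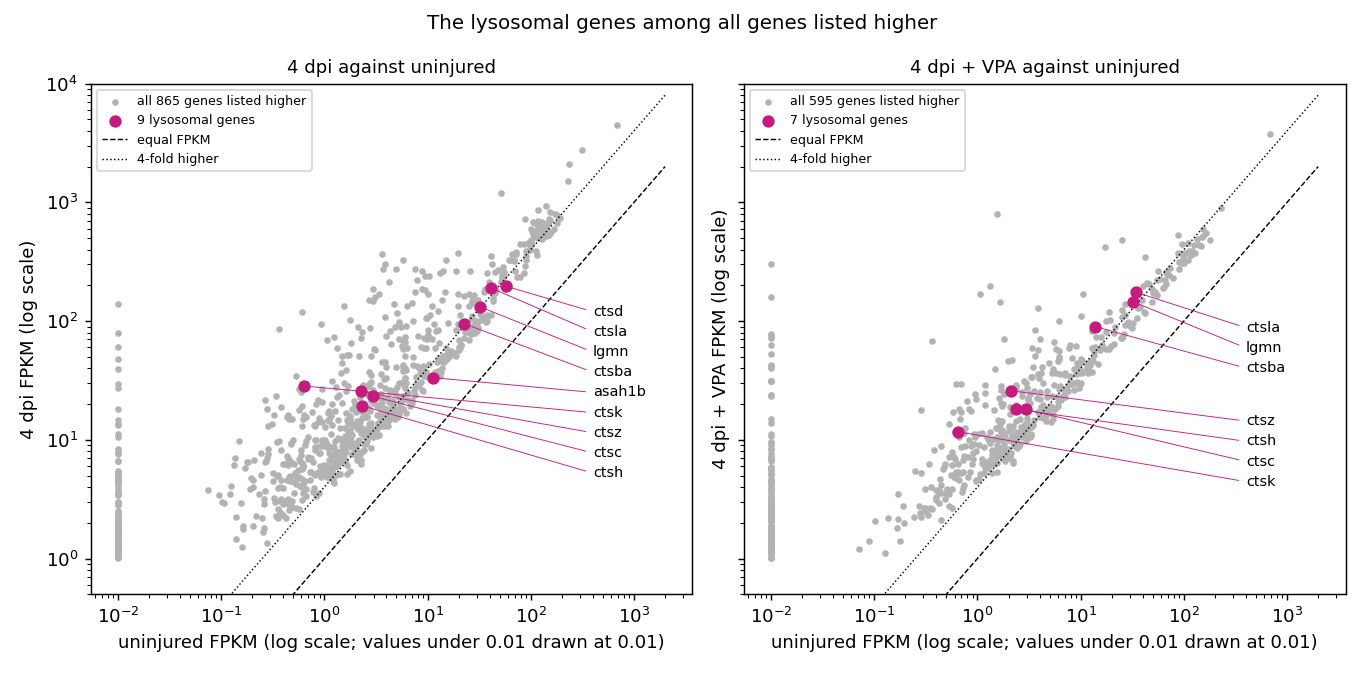
FPKM in the injured group against FPKM in uninjured retina, both on log scales, for all genes listed higher at 4 dpi (left) and at 4 dpi + VPA (right), 1 entry per gene; the 9 and 7 lysosomal genes are coloured and labelled. At 4 dpi the abundant genes lie near the line of a 4-fold higher level, with *ctsd* (3.44-fold) and *asah1b* (2.94-fold) below it, and of the lysosomal genes *ctsk* lies farthest above it in both panels.

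The early comparison, 12 hpi against uninjured retina, listed only *ctsla* of the 9 genes. A transcript of *ctsla* was at 158 FPKM at 12 hpi and 34.3 FPKM in uninjured retina, 4.61-fold higher, and the authors' deposited table gives it a log2 change of 2.2 with a derived SE of 0.87 (p = 0.0132, q = 0.997). Ordered by FPKM, it was at place 12 of 381 genes listed higher at 12 hpi, and ordered by log2 change at place 292. It was at least 4-fold higher, as were 85.8% of the genes listed higher at 12 hpi, and its p was above 0.01, while 33.6% of those genes had a p of at most 0.01. The same transcript was at 175 FPKM at 4 dpi + VPA, and the authors' deposited table gives it a log2 change of 2.35 with a derived SE of 0.92 (p = 0.0142, q = 0.997). Both log2 fold changes use the same uninjured value, whose error cancels in their difference, so neither SE applies to that difference. Whether the 2 groups differed was not tested. In uninjured retina this transcript carried 83.6% of the gene-level FPKM of *ctsla*, for which 4 transcripts were annotated. *ctsla* was the only one of the 9 listed in all 3 comparisons, so no mean pattern of several of the genes over the 3 comparisons could be formed, and no other gene was matched to one.

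At 4 dpi + VPA the tables gave transcripts, and 1 transcript was listed for each of 7 genes. *lgmn* was at 146 FPKM at 4 dpi + VPA and 32.0 FPKM in uninjured retina, and the authors' deposited table gives it a log2 change of 2.19 with a derived SE of 0.79 (p = 0.0053, q = 0.997). *ctsba* was at 89.8 FPKM at 4 dpi + VPA and 13.9 FPKM in uninjured retina, and the authors' deposited table gives it a log2 change of 2.69 with a derived SE of 0.84 (p = 0.00345, q = 0.948). Among the scarce genes, *ctsz* was at 25.9 and 2.12 FPKM, *ctsh* at 18.1 and 2.34 FPKM and *ctsc* at 18.0 and 2.94 FPKM, with 4 dpi + VPA first in each pair. *ctsk* was at 11.7 FPKM at 4 dpi + VPA and 0.642 FPKM in uninjured retina, 18.2-fold higher, and the authors' deposited table gives it a log2 change of 4.19 with a derived SE of 1.2 (p = 0.0109, q = 0.997). The 7 genes ranged from 4.56-fold to 18.2-fold higher. Their median log2 change with the pseudocount was 2.69, against 2.74 over the 595 genes listed higher. It cannot be set against the median of 2.21 over 9 genes at 4 dpi. That median includes *ctsd* and *asah1b*, which had the smallest changes there, and is at gene level. All 7 were at least 4-fold higher, where 76.8% of the genes listed higher were. A p of at most 0.01 was reached by 4 of the 7 (*ctsba*, *ctsc*, *ctsz* and *lgmn*), where 28.4% of the genes listed higher had one.

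Both 4-day groups were compared with the same uninjured retina, so their fold changes are not independent, and the levels are set side by side here. For *ctsk* 1 transcript is annotated, and its uninjured FPKM was identical in both sets of tables, which makes the gene and transcript levels the same quantity. *ctsk* was at 11.7 FPKM at 4 dpi + VPA and 28.4 FPKM at 4 dpi, a ratio of 0.413 or a log2 difference of -1.28. No SE of this difference can be derived, because both comparisons share the uninjured value, whose error cancels in it. Combining the SEs of both comparisons gives 1.64, which counts that error in full in each and is only a ceiling, apart from the understatement given above. Whether *ctsk* differed between the 4-day groups was not tested. Among 214 genes with 1 annotated transcript that were listed higher in both comparisons, the median of this log2 difference was -0.20, with quartiles of -0.84 and 0.26, and 36 genes were lower than *ctsk*. For the other 6 genes the transcript level at 4 dpi + VPA was between 0.775 and 1.1 times the gene level at 4 dpi. For *ctsh*, *ctsc* and *lgmn* the listed transcript carried 100% of the gene's uninjured FPKM after rounding, for *ctsz* 93.8%, for *ctsla* 83.6% and for *ctsba* 61.8%. The 6 ratios are therefore not a measurement of valproic acid alone. *ctsd*, with 4 annotated transcripts, and *asah1b*, with 2, have no value at 4 dpi + VPA in the tables.

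The coordinates on GRCz10 are those of the deposited tables. *ctsba* lies on chromosome 17 from 32670419 to 32684022, *ctsc* on chromosome 15 from 43682885 to 43704485, *ctsd* on chromosome 18 from 16144528 to 16157015, *ctsh* on chromosome 18 from 26437605 to 26444007 and *ctsk* on chromosome 16 from 29558313 to 29567926. *ctsz* lies on chromosome 6 from 49772718 to 49782709, and *lgmn* and *asah1b*, on the minus strand, lie on chromosome 13 from 35913843 to 35924495 and on chromosome 1 from 15961316 to 15972107. The interval given for *ctsla*, on chromosome 5 from 44054985 to 44243585, spans 189 kb, where those of the other 8 genes span 6.40 to 21.6 kb. *ctsla*, *ctsba* and *asah1b* have close copies in the zebrafish genome, and the sources used here do not state how reads shared between copies were assigned, so their levels are uncertain to that extent.

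No other gene with a cathepsin symbol was listed. A reference name table holds 19 gene identifiers with a cathepsin symbol, of which 7 were listed at 4 dpi, 6 at 4 dpi + VPA and 1 at 12 hpi, every one of them among the 9 genes. The 9 genes were chosen with these results known, so this overlap is a description only. Of all gene identifiers, 2.76%, 1.92% and 1.16% were listed higher in the same order. The cathepsin identifiers not listed at 4 dpi, 12 in all, include *ctsbb*, *ctslb*, *ctsf*, *ctss1*, *ctss2.1* and *ctss2.2*. By domain annotation, *zgc:110239* was 1 further listed gene with a papain family domain, the cathepsin propeptide inhibitor domain and the lysosome term, chosen here after its values were seen. It was at 18.7 FPKM at 4 dpi and 3.77 FPKM in uninjured retina, and its level at 4 dpi + VPA was 22.7 FPKM. Of a list of 24 other cathepsins and lysosomal peptidases, 3 were listed at 4 dpi and the same 3 at 4 dpi + VPA, all higher, and 0 at 12 hpi. *scpep1*, a serine carboxypeptidase gene, was at 30.3 FPKM at 4 dpi + VPA and 25.4 FPKM at 4 dpi, against 4.36 FPKM in uninjured retina in both sets of tables. *tpp1*, which removes tripeptides, was at 12.7 FPKM at 4 dpi and 2.18 FPKM in uninjured retina, and *cpvl*, a carboxypeptidase-like gene, was at 18.1 and 5.80 FPKM in the same order.

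Some other lysosomal genes were listed as well. Of 63 other lysosomal hydrolases, 8 were listed at 4 dpi and 7 at 4 dpi + VPA, all higher, and 0 at 12 hpi. The fucosidase genes *fuca1.1* and *fuca1.2* were at 8.09 and 7.73 FPKM at 4 dpi, against 1.27 and 0.906 FPKM in uninjured retina. *ifi30*, a lysosomal thiol reductase gene, was at 28.1 FPKM at 4 dpi and 1.29 FPKM in uninjured retina. *dnase2*, an acid DNase gene, was at 12.0 FPKM at 4 dpi + VPA and 2.04 FPKM in uninjured retina. Of 49 genes for lysosomal membrane proteins, trafficking and sterol export, *cd63*, a tetraspanin of late endosomes, was listed in all 3 comparisons. It was at 72.7 FPKM at 12 hpi, 76.8 FPKM at 4 dpi and 110 FPKM at 4 dpi + VPA, against 10.1 FPKM in uninjured retina. *npc2*, a cholesterol carrier of the lysosomal lumen, was listed at 4 dpi + VPA, at 28.8 FPKM against 5.57 FPKM in uninjured retina. *scarb2*, listed under a symbol outside the list and chosen here after its values were seen, was at 12.3 FPKM at 12 hpi and 33.6 FPKM in uninjured retina. It was the only gene annotated to the lysosome by Gene Ontology and listed lower in any of the 3 comparisons. With that annotation 10 were listed higher at 4 dpi, 9 at 4 dpi + VPA and 1 at 12 hpi. Of these, 8 at 4 dpi, 6 at 4 dpi + VPA and the 1 at 12 hpi were among the 9 genes. Those were chosen with these results known, so the counts give no direction for other lysosomal genes.

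Among 27 vacuolar ATPase subunit genes, whose products acidify the lysosome, 1 was listed in each comparison. *tcirg1b*, a subunit of the proton channel, was at 15.8 FPKM at 4 dpi and 3.85 FPKM in uninjured retina. At 12 hpi a transcript of *atp6v0ca* was at 51.1 FPKM and was listed at 0 in uninjured retina. Its log2 change is therefore infinite and has no SE, and 1 transcript does not give the level of the gene. None of 16 genes for lysosomal biogenesis factors and their regulators, among them *tfeb*, *tfe3a*, *tfe3b* and *mitfa*, was listed in any comparison. Over the lists of peptidases, hydrolases, membrane proteins and vacuolar ATPase together, 13 of 163 genes (7.98%) were listed at 4 dpi, all higher, and their median log2 change was 2.04. At 4 dpi + VPA 13 of 163 were listed, all higher, with a median of 2.50, and at 12 hpi 2 of 163 (1.23%). The shares of all gene identifiers listed higher were 2.76% at 4 dpi, 1.92% at 4 dpi + VPA and 1.16% at 12 hpi. These identifiers may include genes that were not expressed or not tested, and the lists were chosen with earlier results known. The shares are therefore a description and do not measure an enrichment. A gene not listed had not passed the filter, was not measured or carries another symbol in the tables.

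Protease inhibitor genes were listed higher beside the proteases. *cst14b.1*, a cystatin gene (cystatins block papain family proteases), was at 20.2 FPKM at 4 dpi and 1.5 FPKM in uninjured retina, and the authors' deposited table gives it a log2 change of 3.76 with a derived SE of 1.0 (p = 0.00175, q = 0.469). It was at 39.6 FPKM at 4 dpi + VPA, and the authors' deposited table gives it a log2 change of 4.73 with a derived SE of 0.97 (p = 0.0003, q = 0.272). *cst14a.2* was at 36.6 FPKM at 4 dpi + VPA and 7.06 FPKM in uninjured retina. By domain annotation *si:busm1-57f23.1*, chosen here after its values were seen, was the most abundant listed cystatin gene, at 205 FPKM at 4 dpi + VPA and 182 FPKM at 4 dpi, against 46.3 FPKM in uninjured retina. At 12 hpi no gene with a cystatin domain was listed. Of all gene identifiers, 1.16% were listed higher at 12 hpi, 2.76% at 4 dpi and 1.92% at 4 dpi + VPA. Of 21 protease inhibitor genes 3 were listed at 12 hpi, 2 at 4 dpi and 4 at 4 dpi + VPA, all higher. The others were *serpinb1*, a serpin gene, at 9.09, 31.4 and 29.0 FPKM at 12 hpi, 4 dpi and 4 dpi + VPA against 1.18 FPKM in uninjured retina, *serpinb1l3* at 1.41 FPKM at 12 hpi and listed at 0 in uninjured retina, and the metalloprotease inhibitors *timp2b* at 84.4 and 3.33 FPKM at 12 hpi and *timp2a* at 27.2 and 9.57 FPKM at 4 dpi + VPA.

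**Figure D4:**
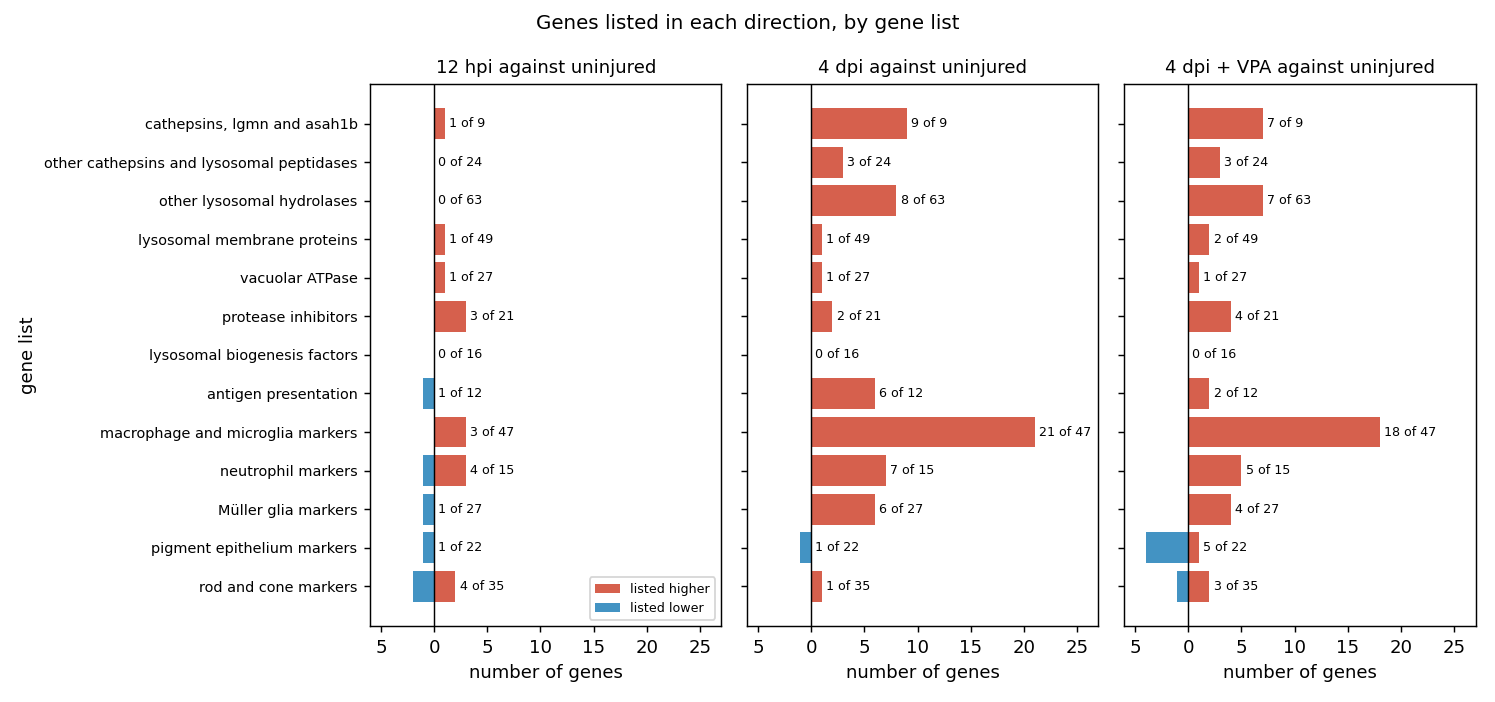
Number of genes listed higher (right of 0) and lower (left of 0) for each gene list in each of the 3 comparisons; the text beside a bar gives how many genes of the list were listed in either direction. At 4 dpi the cathepsins, *lgmn* and *asah1b* and the macrophage and microglia markers, 21 of 47, have the longest bars, and the lysosomal biogenesis factors have none.

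Markers of phagocytes were listed higher beside the cathepsins. Of 47 macrophage and microglia markers, none of them among the 9 genes, 3 were listed at 12 hpi, 21 at 4 dpi and 18 at 4 dpi + VPA, all higher. In the same order, 1.16%, 2.76% and 1.92% of all gene identifiers were listed higher. At 4 dpi the 21 listed markers summed to 2918 FPKM, against 346 FPKM in uninjured retina, and without *apoeb*, which Müller glia also express, to 807 FPKM against 112 FPKM. At 4 dpi + VPA the listed markers without *apoeb* summed to 371 FPKM, against 51.1 FPKM in uninjured retina, and at 12 hpi the 3 listed markers summed to 45.2 FPKM against 7.84 FPKM. At 12 hpi *tspan36* alone, a gene not specific to phagocytes, gave the largest part, 26.1 FPKM against 3.82 FPKM in uninjured retina. Each sum holds only the markers listed in that comparison, all of them higher, so the listing itself sets the direction, and the sums are not comparable levels between comparisons. Among the markers, *arpc1b*, an actin regulator gene, was at 45.2 FPKM at 4 dpi and 3.65 FPKM in uninjured retina. *c1qc*, a complement gene, was at 28.4 FPKM at 4 dpi and 1.69 FPKM in uninjured retina, and *rac2*, a small GTPase of blood cells, was at 10.6 and 0.698 FPKM in the same order. None of the listed markers was at 0 in uninjured retina apart from a transcript of *apoeb* at 4 dpi + VPA. In whole retina, more phagocytes and more cathepsin RNA per cell cannot be told apart, and the part of cell numbers in the cathepsin levels was not tested.

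Neutrophil markers were listed 3 higher and 1 lower of 15 at 12 hpi, 7 higher at 4 dpi and 5 higher at 4 dpi + VPA. In the same order, 1.16%, 2.76% and 1.92% of all gene identifiers were listed higher. At 12 hpi, 4 dpi and 4 dpi + VPA the listed neutrophil markers summed to 78.6, 148 and 106 FPKM. In uninjured retina the sums were 4.52, 9.42 and 4.56 FPKM, again over the markers listed in each comparison. The largest part of each injured sum came from *mmp9* alone, a gene not specific to neutrophils, so the sums are not a measure of neutrophils. *mmp9* was at 47.8, 85.7 and 67.8 FPKM in the same order, against 0.363 FPKM in uninjured retina. *lect2l* was listed at 0 in uninjured retina and was at 6.44, 4.32 and 9.0 FPKM at 12 hpi, 4 dpi and 4 dpi + VPA. Of 12 antigen presentation genes, a process that uses cathepsins and *ifi30* in the class II pathway, 6 were listed higher at 4 dpi, 2 higher at 4 dpi + VPA and 1 lower at 12 hpi. Of those at 4 dpi, *ifi30* is also counted among the lysosomal hydrolases, and *cd74a* and *cd74b* also among the macrophage and microglia markers. The 2 at 4 dpi + VPA were *b2m* and *mhc1uba*, both of class I, so no class II gene of the list was listed there. *cd74b*, an invariant chain gene whose product cathepsins cleave in mammals, was at 84.5 FPKM at 4 dpi and 12.5 FPKM in uninjured retina. *b2m*, of the class I complex, was at 134 FPKM at 4 dpi and 19.7 FPKM in uninjured retina. The 1 lower entry at 12 hpi was a transcript of the class II gene *mhc2dab*, and its derived SE of 333 on the log2 scale leaves that change without a usable error.

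Markers of the other retinal cell types checked did not share one direction. At 12 hpi, 4 dpi and 4 dpi + VPA, 1.16%, 2.76% and 1.92% of all gene identifiers were listed higher. Listed lower were 213 of 599 listed genes at 12 hpi, 569 of 1434 at 4 dpi and 439 of 1036 at 4 dpi + VPA. Small counts such as 1 of a list are a description only. Of 22 pigment epithelium markers, 1 was listed lower at 12 hpi, 1 lower at 4 dpi, and 4 lower and 1 higher at 4 dpi + VPA. At 12 hpi and at 4 dpi the only one listed was *trpm1b*, also a gene of bipolar cells, so it does not stand for pigment epithelium alone. It was at 12.1 FPKM at 12 hpi against 36.0 FPKM in uninjured retina, and at 13.2 against 48.3 FPKM at 4 dpi. *rdh5*, a retinol dehydrogenase gene, was at 3.42 FPKM at 4 dpi + VPA and 28.8 FPKM in uninjured retina, and *rgra*, an opsin gene of pigment epithelium and Müller glia, was at 21.8 and 82.9 FPKM. The 1 pigment epithelium marker listed higher at 4 dpi + VPA was at 58.2 FPKM there, the highest level of the 5 listed. Of 27 Müller glia markers, 6 were listed higher at 4 dpi, 4 higher at 4 dpi + VPA and 1 lower at 12 hpi, with *gfap* at 84.5 FPKM at 4 dpi and 10.2 FPKM in uninjured retina. Of 35 rod and cone markers, at 12 hpi 2 were listed higher and 2 lower, 1 was listed higher at 4 dpi, and at 4 dpi + VPA there were 2 higher and 1 lower. *nr2e3*, a nuclear receptor gene of photoreceptors, was the only one listed in all 3 comparisons, higher in each, at 72.3, 37.2 and 43.6 FPKM at 12 hpi, 4 dpi and 4 dpi + VPA against 11.9 FPKM in uninjured retina. The other marker listed higher at 12 hpi and at 4 dpi + VPA was a transcript of *pde6g*. It was at 1.49 and 1.51 FPKM, little above the filter of 1 FPKM. In uninjured retina *pde6g* was listed at 0, so its log2 change is infinite and has no SE. The recoverin gene *rcvrna* was listed lower at 12 hpi and at 4 dpi + VPA, at 63.6 and 85.7 FPKM against 237 FPKM in uninjured retina. At 12 hpi *grk1b*, a photoreceptor kinase gene, was listed lower too, at 4.45 FPKM against 53.8 FPKM in uninjured retina.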

How the data were processed

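Per the submitters' processing notes the build was GRCz10, and the tools were Cufflinks 2.2.1, TopHat2 2.1.0 and Bowtie2 2.2.2. The deposited FPKM values were computed by the authors as 1 value per group, per the file headers, at the gene level for 4 dpi and at the transcript level for 12 hpi and 4 dpi + VPA. The log2 fold changes (no pseudocount), the test statistic (a score), the p-values and the q-values were deposited by the authors, per the file headers, and were copied. Of 257 transcripts listed at 12 hpi and 4 dpi + VPA, all 257 had equal uninjured FPKM values. The tables were joined with Python 3.11.15 and pandas 2.3.3. No test was run, since each group has 1 value. For a gene with several entries in a comparison, the entry of highest mean FPKM was used, and medians were taken of log2 ratios with a pseudocount of 0.1. Functions were tested on simulated data. The 9 genes and all gene lists were chosen with earlier results of these data known. Named genes are all 9 in every comparison, a choice of the 4 largest changes with an FPKM of at least 1 in each list, every listed gene of the peptidase and inhibitor lists, and the few said to be chosen afterwards. Alternatives were other pseudocounts, filters, entries per gene and thresholds. No replicate values, depths or sequences were used here.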

Additional observations from a re-analysis of the deposited data

How the results depend on the processing

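The number of the 9 genes counted depends on the threshold. At a p of at most 0.01 in the authors' deposited tables it was 0 of 1 at 12 hpi, 3 of 9 at 4 dpi and 4 of 7 at 4 dpi + VPA, and at a q of at most 0.05 it was 0 in each comparison. By the same p of at most 0.01, 33.6%, 40.2% and 28.4% of the genes listed higher remained at 12 hpi, 4 dpi and 4 dpi + VPA. By the same q of at most 0.05, 0%, 4.51% and 0% of them remained. With at least 5 FPKM in the higher group the counts were the same 1, 9 and 7. With pseudocounts of 1 and 0.01, the median log2 change of the listed genes was 2.17 and 2.2 at 12 hpi, 2.19 and 2.22 at 4 dpi, and 2.51 and 2.69 at 4 dpi + VPA. A floor of 1 FPKM on the uninjured level, which removes *ctsk*, gave 2.15 at 4 dpi and 2.63 at 4 dpi + VPA, and could not change the single gene at 12 hpi. Summing entries or taking the entry of lowest p could not change these medians, since each of the genes had 1 entry per comparison. No paired analysis was possible because each group has 1 sample. With 1 pooled value per group and unknown depth, an error between fish cannot be given.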
